A study of Mus musculus with 30 samples.

Results

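The glutamate and GABA receptor subunit genes are the genes whose products form the main fast and slow transmitter receptors of the brain. They were taken by name from the deposited expression table: the AMPA (Gria), NMDA (Grin), kainate (Grik), delta (Grid) and metabotropic (Grm) glutamate receptor genes, and the GABA-A (Gabr) and GABA-B (Gabbr) receptor genes. Such a name was carried by 47 of 34871 genes, and 44 of them had a mean level above 0 over all 30 brains, which made them members. Gabrp (mean level -3.43), Grm6 (-3.64) and Gabrr3 (-1.40) fell below that limit. The member just above it was the retinal-type subunit gene Gabrr1 at 0.45, followed by Gabrr2 at 2.68. Every level in the text is the authors' log2 RPKM (reads relative to gene length and to library size) after conditional quantile normalization, a step that evens out effects of gene length and GC content and brings libraries to a like distribution.

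The brains came from mice aged 8 months with 2 intact copies of Tmem106b (Tmem106b+/+, WT), 1 intact copy (Tmem106b+/-, HET) or no intact copy (Tmem106b-/-, KO), 10 mice of each genotype. Tmem106b encodes a lysosomal membrane protein, and the labels name no cell type to which its deletion is limited. They do not give the strain, the targeted part of the gene or the meaning of the cohort number. In every genotype 6 mice belonged to cohort 1 and 4 to cohort 2, with as many females as males in each. RNA was taken from the cerebral hemispheres, so each library is a mixture of all the cells there. In such bulk samples fewer cells of a type and less RNA per cell cannot be told apart.

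Tmem106b itself lay between 9.06 and 9.27 in WT, between 8.54 and 8.62 in HET and between 7.43 and 7.67 in KO, with no overlap between genotypes. Lists of cell type markers were measured in the same libraries. Of 12 oligodendrocyte markers 11 fell in KO against WT, with a list median of -0.28 log2, while 0 of 10 neuron markers, 0 of 7 excitatory and 0 of 9 inhibitory neuron markers passed the test. The 10 markers of cerebellum, a region that the labelled tissue leaves out, were present in every library at mean levels from 7.08 (Fat2) to 10.72 (Car8), and the lowest value of any of them was 6.58. RNA integrity numbers (RIN) ran from 8.5 to 10. No pair of libraries held identical values. The read depth of the libraries is unknown, since the deposited values carry no counts, and precision was judged from the spread between mice.

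Ionotropic receptors are channels assembled from several subunits around a pore that the transmitter opens. AMPA receptors carry most of the fast excitatory current, NMDA receptors need both glutamate and a co-agonist at the obligatory Grin1 product, and kainate receptors modulate excitability before and after the synapse. GABA-A receptors are chloride channels built mostly of alpha, beta and gamma subunits, while alpha with delta subunits forms receptors outside the synapse. Metabotropic glutamate receptors and the GABA-B receptor act through G proteins, and the GABA-B receptor is an obligatory pair of the Gabbr1 and Gabbr2 products.

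Many of the GABA-A genes lie in clusters of the mouse genome (mm10). Gabra6 and Gabrb2 neighbour each other on chromosome 11, with a gap of 98.7 kb. Gabrg1, Gabra2, Gabra4 and Gabrb1 do so on chromosome 5, with gaps of 118, 474 and 41.6 kb. Gabrg3 and Gabra5 lie side by side on chromosome 7, and a cluster on the X chromosome holds Gabre, Gabra3 and Gabrq. Promoter sequences of RefSeq (GRCm38.p6, 250 bases before to 50 after a transcript start) were matched to 29 of the 44 members. The promoters of 5 genes are shown because the results below turn on them: Gabra2 and Gabrb1, genes of the chromosome 5 cluster with Gabra4 between them, that varied together and differed between cohorts, and Gabra6, Gria4 and Grin2c, which varied with markers of cerebellum. Each is written 5′ to 3′ on the strand of its gene, with matches to the searched motifs, read on both strands, in capitals. The positions are chr5:71095800-71096099 (minus strand) for Gabra2, chr5:71699682-71699981 (plus strand) for Gabrb1, chr11:42321023-42321322 (minus strand) for Gabra6, chr9:4796185-4796484 (minus strand) for Gria4 and chr11:115267194-115267493 (minus strand) for Grin2c.
Gabra2: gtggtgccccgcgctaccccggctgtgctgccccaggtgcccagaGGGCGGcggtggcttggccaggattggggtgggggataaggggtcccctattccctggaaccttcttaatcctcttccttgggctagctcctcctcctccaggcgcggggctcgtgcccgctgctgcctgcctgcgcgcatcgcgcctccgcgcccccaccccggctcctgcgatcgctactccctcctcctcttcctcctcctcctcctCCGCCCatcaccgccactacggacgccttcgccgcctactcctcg
Gabrb1: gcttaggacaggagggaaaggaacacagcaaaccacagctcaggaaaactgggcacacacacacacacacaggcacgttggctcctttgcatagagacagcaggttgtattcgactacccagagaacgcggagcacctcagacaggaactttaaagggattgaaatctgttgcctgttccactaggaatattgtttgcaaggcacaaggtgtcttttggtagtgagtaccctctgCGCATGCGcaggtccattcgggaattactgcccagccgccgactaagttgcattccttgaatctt
Gabra6: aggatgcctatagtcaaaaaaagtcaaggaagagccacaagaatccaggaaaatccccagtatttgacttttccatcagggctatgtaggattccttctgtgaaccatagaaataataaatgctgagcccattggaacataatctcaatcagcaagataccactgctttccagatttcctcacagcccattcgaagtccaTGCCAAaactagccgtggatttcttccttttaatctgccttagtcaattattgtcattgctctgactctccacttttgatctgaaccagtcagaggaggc
Gria4: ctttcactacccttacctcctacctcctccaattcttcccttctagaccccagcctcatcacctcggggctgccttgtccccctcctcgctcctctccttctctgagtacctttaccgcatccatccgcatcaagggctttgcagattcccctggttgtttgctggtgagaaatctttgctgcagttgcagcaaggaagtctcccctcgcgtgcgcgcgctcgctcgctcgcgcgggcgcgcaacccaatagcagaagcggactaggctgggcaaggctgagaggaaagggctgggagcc
Grin2c: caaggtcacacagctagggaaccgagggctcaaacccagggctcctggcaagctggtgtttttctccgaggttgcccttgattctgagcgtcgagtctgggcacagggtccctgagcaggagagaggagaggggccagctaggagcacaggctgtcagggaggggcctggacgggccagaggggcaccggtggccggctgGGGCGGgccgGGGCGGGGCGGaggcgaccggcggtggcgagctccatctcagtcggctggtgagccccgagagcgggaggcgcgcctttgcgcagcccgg

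The capitals mark GGGCGG, the GC box, in Gabra2 and Grin2c (the last pair of boxes in Grin2c overlaps by a base), CGCATGCG, the core of the NRF1 motif, in the printed window of Gabrb1, and TTGGCA, a motif of the nuclear factor I family, in Gabra6. The table holds 2 windows for Gabrb1, and the printed one spans the start of the gene in the deposited table. The other, at chr5:71657671-71657970 with a GC content of 66.0% against 50.3%, held none of the motifs searched, and neither did that of Gria4. A member with several windows was counted where any of them held a motif. The GC box was found in 18 of the 29 members with a promoter (62.1%) and in 38.2% of all 27025 genes of the promoter table, beside a median GC content of 60.9% in the member promoters and 52.7% in all promoters. The NRF1 core was found in 1 of the 29, Gabrb1, and in 2.07% of all genes. TTGGCA was found in 3 (Gabra6, Gabrg3 and Gabrr2) and TATAAA, the TATA motif, in 3 (Gabra3, Gabrb2 and Grin3b), against 16.1% and 15.7% of all genes. The cAMP response element TGACGTCA was found in 0 of the 29 and in 2.03% of all genes. A match is a description of the letters in the window and not of a site in use.

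Levels of the members spanned the range from 10.52 (Gabbr1) to 0.45 (Gabrr1), and because the scale is per exon length they can be set in order. The AMPA receptor genes were high, with Gria1, the subunit of many hippocampal and cortical AMPA receptors, at 9.99, Gria2, whose edited product makes the channel nearly impermeable to calcium, at 9.33, Gria4, a subunit of interneurons and cerebellum, at 8.91 and the X-linked Gria3 at 8.47. Among NMDA receptor genes the obligatory Grin1 stood at 9.11, above the glutamate-binding subunit genes Grin2c (8.27), Grin2b (8.14), Grin2a (6.29) and Grin2d (6.08). Grin2c is typical of cerebellar granule cells, Grin2b of the forebrain from early development on and Grin2a of mature synapses. Grin3a (6.22) and Grin3b (3.73), whose products bind glycine, were lower. The high-affinity kainate subunit gene Grik5 reached 9.09, against 7.41 for Grik3, 7.18 for Grik2, 5.92 for Grik4 and 5.84 for Grik1. The delta receptor gene Grid1 (7.24) encodes a synapse-organizing protein.

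Among metabotropic glutamate receptor genes, Grm5 (8.34), which couples to phospholipase C, lay among the higher levels, as did Grm4 (8.04), a presynaptic receptor abundant in cerebellar granule cells. Grm3 (7.35), also found in astrocytes, Grm2 (7.15), Grm7 (6.84) and Grm8 (4.67), which lower cAMP, followed. Both GABA-B genes were high, Gabbr1 at the 98.6th percentile of all 23695 genes with a mean above 0 and Gabbr2 (9.37) at the 95.8th. Among the GABA-A alpha genes were Gabra6 (9.20), known from cerebellar granule cells, Gabra2 (8.82), Gabra3 (8.65), Gabra4 (8.58) and Gabra5 (8.15), the last abundant in hippocampus. Of the beta genes Gabrb2 (8.35) stood above Gabrb1 (6.48), and of the gamma genes Gabrg1 (7.25) stood above Gabrg3 (5.14). Gabrd, the extrasynaptic delta subunit gene, was at 8.37, and the theta and epsilon genes Gabrq (4.48) and Gabre (2.93) were low, as were Gabrr2 and Gabrr1.

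Between WT mice most members varied little. The standard deviation (SD) over the 10 WT brains was lowest for Gabbr1 (0.02), Gria3 (0.03) and Grik3 (0.04) and highest for Gabrr1 (0.47), Grin2a (0.31) and Grin3b (0.30). Grin2a stands out among these by its level: Gabrr1 and Grin3b are low in brain RNA, where spread is wide for many genes, whereas Grin2a ran from 5.94 to 6.78 in WT at a median of 6.17. Gria2 (9.31 ± 0.07 in WT, SD, n = 10) and Gabra6 (9.18 ± 0.22) are neighbours in the order of levels. Their WT means differed by less than the SD of Gabra6, though by more than that of Gria2. Some members overlap other genes of the table, and since no strand setting is known, reads of the partners cannot be told apart. Among these are Grin1 with the antisense gene Grin1os (level 9.59), Grin3b with Tmem259 (7.87) and Gabra5 with Gm9962 (6.48).

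**Figure D1:**
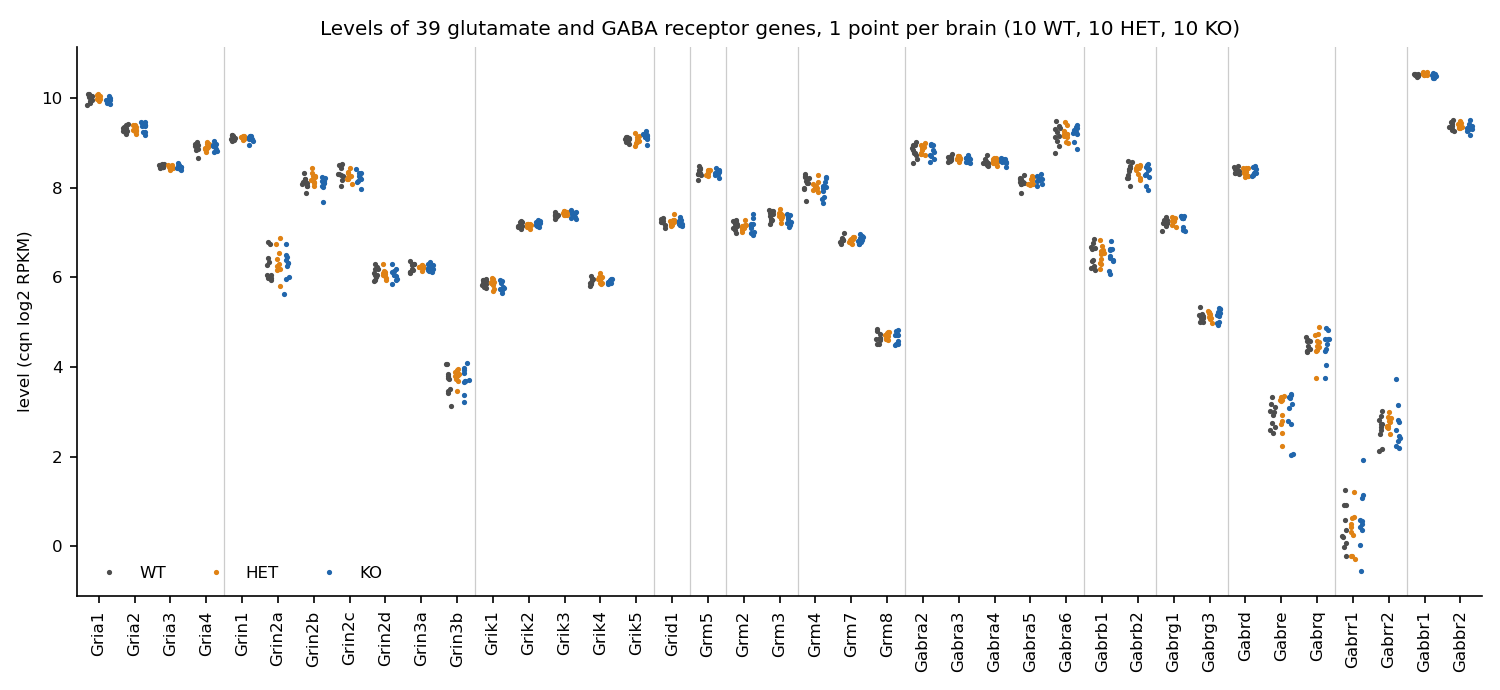
Levels of 39 receptor genes in single brains, as conditional-quantile-normalized log2 RPKM on the vertical axis and genes grouped by receptor family on the horizontal axis, with WT, HET and KO brains in separate colours. Levels run from above 10 (Gabbr1) to near 0 (Gabrr1), the 3 genotypes overlap for every gene, and the points of Grin2a and Gabrb1 spread more widely than those of genes at like levels.

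The first comparison asked whether loss of both Tmem106b copies changed receptor RNA. In KO against WT no receptor gene was called, which does not show that none changed. Of the 44 members 0 passed an adjusted p of 0.05 in limma. The fit held all 30 brains, and its terms were genotype, sex, cohort and RIN. Over all 23695 genes 237 passed (1.00%). At an unadjusted p under 0.05 there were 6 members (13.6%) and 2846 genes (12%). Differences were small, with a median of -0.01 over the members and 0.01 over all genes, 18 positive and 26 negative. The 95% interval lay within ±0.2 log2 for 35 of the 44.

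Of the AMPA genes, Gria2 gave the most positive difference, with 9.17, 9.39 and 9.47 as lowest, median and highest KO values against 9.20, 9.30 and 9.42 in WT. The groups overlap over most of their range, 3 of 10 KO brains lay below the WT mean, and the difference was 0.06 ± 0.02 log2 (SE, adjusted p = 0.351 in limma). Gria1 differed by -0.05, with 8 of 10 KO brains below the WT mean. The NMDA genes showed the same small scale, Grin1 at -0.02, Grin2a at 0.01 and Grin2b at -0.02, and the most negative was Grin2c at -0.12 ± 0.05 (adjusted p = 0.361), with 9 of 10 KO brains below the WT mean. Cohorts differed in that value, -0.19 in cohort 1 and -0.01 in cohort 2, but the interaction of KO with cohort, 0.18 ± 0.11, did not pass the test (adjusted p = 0.684). Of the kainate genes Grik5 was at 0.06 (adjusted p = 0.433) with 9 of 10 KO brains above the WT mean, Grik2 at 0.02 and Grik1 at -0.09 ± 0.03 (adjusted p = 0.254).

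Among the metabotropic genes Grm4 was at -0.13 ± 0.06 (adjusted p = 0.355), with -0.18 in cohort 1 and -0.05 in cohort 2, while Grm5 (-0.01) and Grm3 (-0.07) gave smaller values. Grik1 was chosen for the text after its values had been seen.

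Among the GABA receptor genes Gabra2 differed by -0.002 log2 with an interval from -0.08 to 0.08, Gabrb2 by -0.06 (-0.16 to 0.05) and Gabrd by -0.02 (-0.08 to 0.04). The GABA-B genes differed by -0.02 (Gabbr1) and -0.04 (Gabbr2). The most positive value of all members, 0.15 ± 0.26, belonged to Gabrr1, the gene with the lowest level and the widest interval. Oligodendrocyte markers moved with this comparison: their summed level ran from 13.50 to 13.74 in WT and from 13.29 to 13.53 in KO. Cerebellum markers ran from 12.49 to 13.10 in WT and from 12.56 to 12.93 in KO, with 0 of 10 called and a median of -0.02. The part of either in the values of single receptor genes was not tested.

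**Figure D2:**
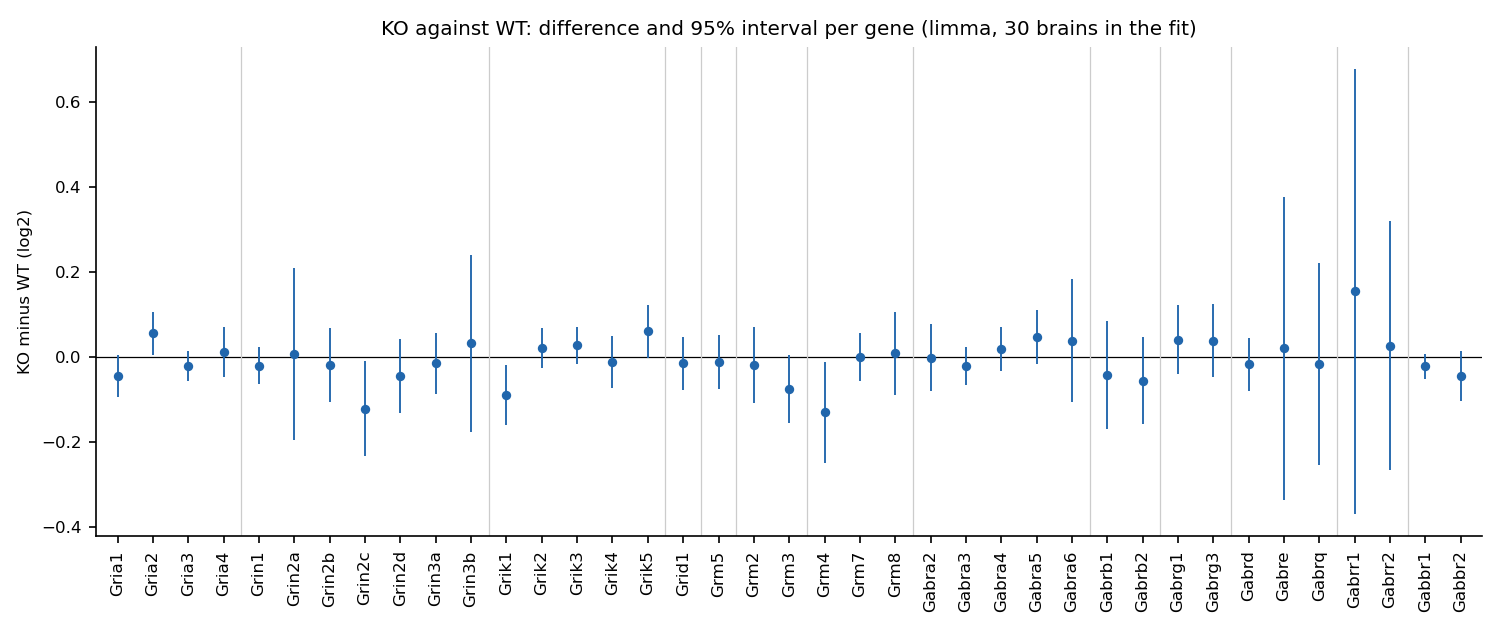
Difference between KO and WT for each of 39 receptor genes, in log2 units on the vertical axis, with points for the limma estimate and bars for its 95% interval. Most points lie within 0.1 of 0, Grm4, Grin2c and Grik1 lie lowest with intervals below 0 before adjustment, and the intervals of Gabrr1 and Gabre are the widest.

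Genes that work with the receptors gave 0 calls in KO against WT as well. Of 15 auxiliary subunits of glutamate receptors 2 were positive and 13 negative, with a median of -0.04, from Shisa6 (-0.16), an AMPA receptor partner, to Neto1 (0.01), a kainate and NMDA receptor partner. Of 19 scaffold genes of excitatory synapses 8 were positive and 11 negative (median -0.02, from Dlgap3 at -0.14 to Pick1 at 0.05). The 15 scaffold and auxiliary genes of GABA receptors had a median of 0.003, from Kctd8 (-0.07) to Plcl2 (0.08). The 21 genes of transmitter synthesis and transport had a median of -0.004, from Slc6a12 (-0.35) to Slc17a8 (0.08). The 5 glycine receptor genes ran from Glra4 (-0.17) to Glra2 (0.14). 

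Loss of 1 copy and the step from 1 copy to none were compared in the same fit, and both share brains with the comparison above. In HET against WT 0 of 44 members were called, beside 1 gene of 23695 (0.00422%), Tmem106b. At an unadjusted p under 0.05 there were 2 members (4.55%) and 1497 genes (6.32%). The NMDA receptor gene Grin2b was at 0.12 ± 0.04 (adjusted p = 0.762), with HET values from 8.04 to 8.43 against 7.88 to 8.32 in WT. Grin2a (0.12), Grin3b (0.07) and Grik3 (0.06) were the other high values, and Gabrr1 (-0.17), Grin2c (-0.10) and Grm4 (-0.08) the low ones. In KO against HET 0 members were called beside 28 genes (0.118%). An unadjusted p under 0.05 was found in that comparison for 8 members (18.2%) and 2052 genes (8.66%). Grin2b was there at -0.14 ± 0.04 (adjusted p = 0.255) with KO values from 7.69 to 8.24, so its HET brains lay higher than those of both other genotypes on average while its WT and KO means, 8.11 and 8.08, lay within their SDs of 0.12 and 0.15. Grin2a (-0.11), Grm3 (-0.08), Grik1 (-0.08), Gria1 (-0.07) and Gabbr1 (-0.04) were the named low values and Gabrr1 (0.33), Grik5 (0.08) and Gria2 (0.04) the high ones. The slope over 0, 1 and 2 deleted copies called 0 members and 241 genes (1.02%). Its unadjusted p was under 0.05 for 7 members (15.9%) and 2852 genes (12%). Along it Grm4 changed by -0.06 ± 0.03 per copy (adjusted p = 0.347).

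The KO effect was also compared between sexes and between cohorts. For the difference between sexes 0 of 23695 genes were called by limma, with 6 members (13.6%) and 1682 genes (7.1%) at an unadjusted p under 0.05. Taken as the KO effect in males minus that in females, the most positive values among members were 0.60 ± 0.35 for Gabre, 0.51 ± 0.29 for Gabrr2 and 0.30 ± 0.14 for Gabra6, and the most negative -0.27 ± 0.08 for Grm2, -0.19 ± 0.08 for Grin2b and -0.19 ± 0.09 for Grm8, with a lowest adjusted p of 0.460. Beside these, 7 of 8 hypothalamus markers were positive in that difference (median 0.38) with 0 called, and their part in it was not tested. For the difference between cohorts 0 members and 8 genes (0.0338%) were called, with 4 members (9.09%) and 2020 genes (8.53%) at an unadjusted p under 0.05. Taken as the effect in cohort 2 minus that in cohort 1, the lowest values were those of Gabrr1 (-0.28) and Gabrg3 (-0.18), and the highest those of Grin2c (0.18), Grin2a (0.14) and Grm4 (0.13).

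The sexes differed in 1 receptor gene. Gabra5, the alpha subunit gene of extrasynaptic receptors in hippocampus, was higher in males, from 8.08 to 8.31 with a median of 8.20 in 15 males and from 7.87 to 8.18 with a median of 8.08 in 15 females. The groups overlap between 8.08 and 8.18, and 14 of 15 males lay above the female mean. The difference was 0.12 ± 0.02 log2 (adjusted p = 0.0352 in limma), or 8.43% on the linear scale. That is 1 of 44 members (2.27%) beside 79 genes over the whole table (0.333%), of which 34 were higher (0.143%) and 45 lower in males (0.19%). An unadjusted p under 0.05 was found for 13 members (29.5%) and 2967 genes (12.5%). The difference was 0.12 in cohort 1 and 0.10 in cohort 2, and neither cohort passed the test alone (adjusted p = 0.289 and 0.755). The call was lost when any 1 of 9 libraries was left out (WT replicates 2, 8 and 10, HET replicates 4, 5 and 8, KO replicates 4, 6 and 10), with adjusted p up to 0.0738, and without an intensity trend in the fit (0.0613). It was also lost without the 2 brains lowest in cerebellum markers, both males (0.11 log2, adjusted p = 0.115).

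Gabrg3, beside Gabra5 on chromosome 7, was at 0.10 (adjusted p = 0.197), with 13 of 15 males above the female mean. Whether it differs from Gabra5 was not tested. The X-linked members were not called: Gabre was at 0.26 ± 0.14, Gabrq at 0.15 ± 0.09, Gria3 at 0.03 and Gabra3 at 0.02. Gabre reached 3.38 in both sexes, with a lowest value of 2.04 in females and 2.60 in males. The lowest values were those of Grm4 (-0.18 ± 0.05, adjusted p = 0.0946), Grin2a (-0.17 ± 0.08, adjusted p = 0.370) and Grin3b (-0.12). Grm4 ran from 7.65 to 8.22 in males and from 7.90 to 8.30 in females, so the groups overlap, and 2 of 15 males lay above the female mean. Beside these, the lower quartile over all genes of a library was -1.20 to -0.29 in males and -0.41 to -0.07 in females, and the summed cerebellum markers ran from 12.49 to 13.02 in males and from 12.77 to 13.10 in females, with 0 of 10 markers called, 8 of 10 negative and a median of -0.09. Hypothalamus markers ran from 9.79 to 11.62 in males and from 8.64 to 10.53 in females as a sum, with 0 of 8 called, 8 of 8 positive and a median of 0.28. For the thalamus the sums were 10.68 to 11.03 and 10.66 to 10.97, with 0 of 8 called, 7 of 8 positive and a median of 0.08. Their part in the sex differences was not tested. Of the genes that work with the receptors 1 was called, Shank2, a scaffold of excitatory synapses, which was lower in males (-0.10 ± 0.02, adjusted p = 0.0386).

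**Figure D3:**
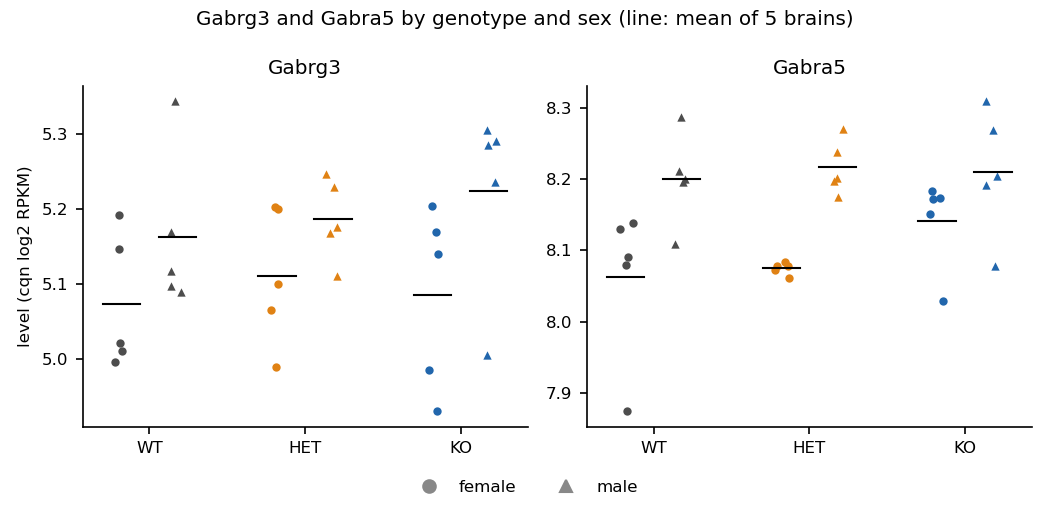
Levels of the chromosome 7 GABA-A genes Gabrg3 and Gabra5 by genotype and sex, as log2 RPKM on the vertical axis, with 1 point per brain and lines at the mean of 5 brains. Males lie higher than females for Gabra5 in each genotype on average, with 1 WT female at 7.87 standing apart, whereas 13 of 15 males lie above the female mean for Gabrg3, which was not called.

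Most calls among the receptor genes came from the comparison of cohorts. In cohort 2 (12 brains) against cohort 1 (18 brains) 8 of 44 members were lower and 0 higher. Over all genes 17.5% passed in either direction, 9.42% lower and 8.09% higher, beside 18.2% of the members, all lower. At an unadjusted p under 0.05 there were 17 members (38.6%) and 30.4% of genes. Over the members 36 of 44 values were negative (81.8%), with a median of -0.04, while over all genes 47.8% were negative. Some other gene lists leaned the same way: 7 of 10 neuron markers (median -0.05) and 16 of 21 genes of transmitter synthesis and transport (median -0.04) were negative. The latter list is not limited to neurons and includes Slc1a3, also an astrocyte marker. Excitatory and inhibitory neuron markers leaned less, with 4 of 7 (median -0.003) and 5 of 9 (median -0.01) negative. Among the 8 were the GABA-A beta genes Gabrb1 and Gabrb2, whose products supply the GABA-binding face of the receptor together with alpha subunits, the alpha gene Gabra2, the NMDA receptor genes Grin2a and Grin2b, and the AMPA receptor genes Gria1 and Gria2.

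Gabrb1 showed the clearest shift. It ran from 6.38 to 6.86 in cohort 1 (median 6.63) and from 6.07 to 6.60 in cohort 2 (median 6.28), and 9 of 12 cohort 2 brains lay below the lowest brain of cohort 1. The difference was -0.34 ± 0.05 log2 (adjusted p = 8.94e-05). Gabrb2 ran from 8.21 to 8.60 in cohort 1 and from 7.94 to 8.50 in cohort 2, with 11 of 12 cohort 2 brains below the cohort 1 mean and a difference of -0.23 ± 0.04. Whether Gabrb1 and Gabrb2 differ in their change was not tested. Gabra2, of the same chromosome 5 cluster as Gabrb1, ran from 8.72 to 9.02 in cohort 1 and from 8.56 to 8.84 in cohort 2, where all 12 brains lay below the cohort 1 mean, and differed by -0.18 ± 0.03. The other genes of that cluster were not called, with Gabra4, which lies between Gabra2 and Gabrb1, at 0.01 and Gabrg1 at -0.04.

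Grin2a differed by -0.34 ± 0.09 (adjusted p = 0.00657), from 5.94 to 6.87 in cohort 1 (median 6.39) and from 5.63 to 6.73 in cohort 2 (median 6.02). Its groups overlap widely, with 1 KO female of cohort 2 near the top of both. Grin2b differed by -0.15 ± 0.04, with all 12 cohort 2 brains below the cohort 1 mean, whereas the obligatory Grin1 was at -0.03. Gria2 differed by -0.10 ± 0.02 and Gria1 by -0.07 ± 0.02 (adjusted p = 0.0153), and for both 11 of 12 cohort 2 brains lay below the cohort 1 mean. Gria1 was not called without KO replicate 4 (adjusted p = 0.0509). Outside the 8, Gabra6 (-0.14, adjusted p = 0.106), Gabrg3 (-0.09, adjusted p = 0.0725) and Grik1 (-0.08, adjusted p = 0.0681) had the lowest values and Grm8 (0.09) and Gria3 (0.01) were among the highest. Of these Grik1 was called without WT replicate 2, WT replicate 7 or HET replicate 7 (adjusted p = 0.0458, 0.0307 and 0.0363), Gabra6 without WT replicate 7 (0.0371) and Gabrg3 without WT replicate 9 (0.0242).

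Males alone gave 5 lower members and females alone 0, with 1 when the WT brains alone were fitted. All 8 were negative in each sex: Gabrb1 was at -0.30 in females (adjusted p = 0.112), Gabra2 at -0.20 and Gabrb2 at -0.19. Leaving RIN out of the terms gave 11, and leaving out the 2 brains lowest in cerebellum markers gave 7, without Gria1 (adjusted p = 0.120). RIN was 9.39 ± 0.24 in cohort 1 and 9.22 ± 0.46 in cohort 2. Along RIN itself 0 members were called, beside 15 genes (0.0633%). Its unadjusted p was under 0.05 for 4 members (9.09%) and 2431 genes (10.3%). Along RIN the lowest slopes were those of Gabrr2 (-0.42 per unit), Gabrr1 (-0.40) and Grin3b (-0.31), and the highest those of Grin2a (0.18), Grin2b (0.08) and Gria2 (0.06). Cell type markers also moved with cohort: 4 of 10 neuron markers and 3 of 9 inhibitory neuron markers were lower, and 4 of 12 oligodendrocyte and 3 of 6 endothelial markers were higher. Summed levels ran from 14.21 to 14.30 in cohort 1 and 14.21 to 14.29 in cohort 2 for neurons, from 12.45 to 12.56 and 12.48 to 12.59 for inhibitory neurons, from 13.29 to 13.61 and 13.39 to 13.74 for oligodendrocytes, and from 9.86 to 10.33 and 10.07 to 10.40 for endothelial cells. None of those markers was at or near 0, and their part in the cohort differences was not tested. Of region markers, 9 of 10 for cerebellum (median -0.09, 0 called) and 6 of 7 for hippocampus (median -0.07, 2 called lower) were negative. Thalamus had 5 of 8 negative with 1 called lower, and olfactory bulb 3 of 4 negative with 0 called. Striatum had 6 of 8 positive (median 0.07) and hypothalamus 5 of 8, with 0 called in either. The part of region markers was not tested either. Exon GC content and the cohort difference had a Spearman rho of 0.02 over all genes with a GC value and 0.21 over the members, across genes, which are not independent.

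**Figure D4:**
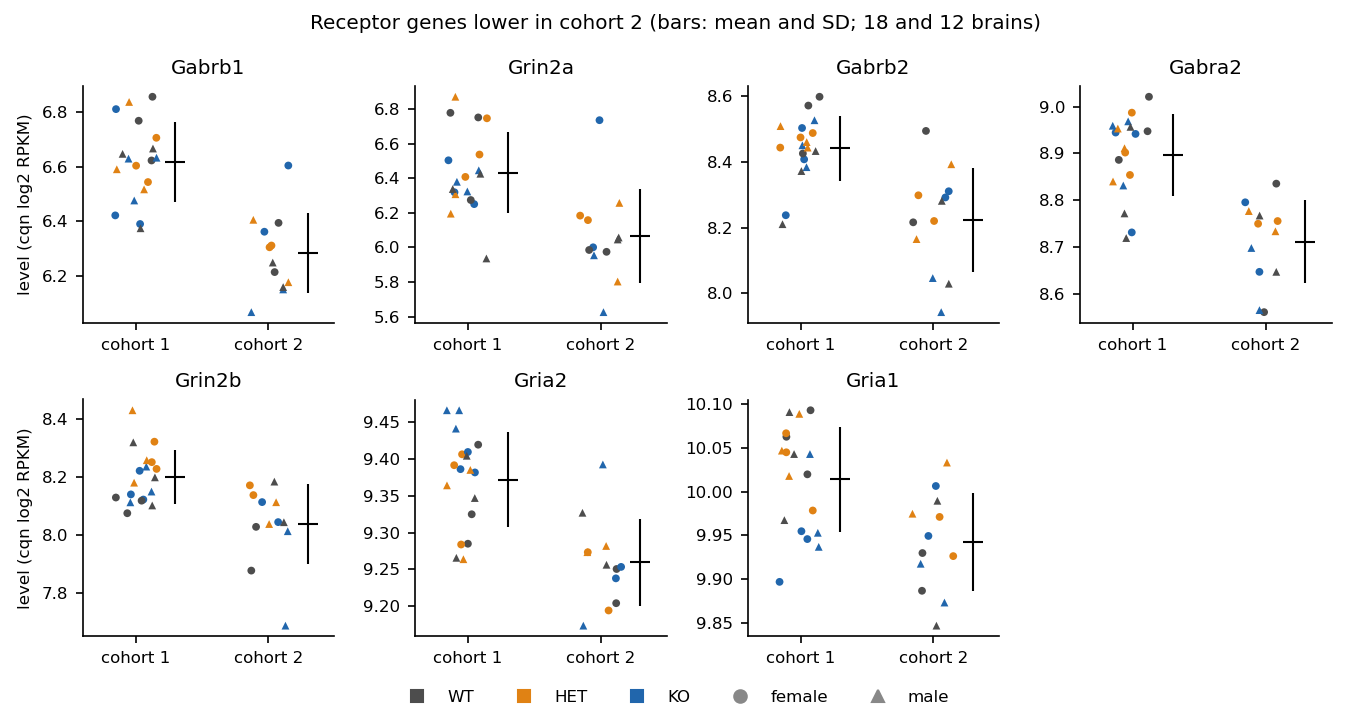
Levels of 7 of the 8 receptor genes lower in cohort 2, as log2 RPKM on the vertical axis, with 1 point per brain coloured by genotype and shaped by sex, and bars for the mean and SD of 18 and 12 brains. All cohort 2 brains lie below the cohort 1 mean for Gabrb1, Gabra2 and Grin2b, and the groups still overlap for all 7 genes shown.

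Genes that act with the receptors were called in both directions between cohorts. Of the auxiliary subunits of glutamate receptors 4 of 15 were lower and 0 higher: Neto1 (-0.19 ± 0.04), and the AMPA receptor partners Cacng8 (-0.15), Shisa6 (-0.11) and Cacng2 (-0.06). Of the excitatory scaffolds Dlgap2 (-0.17), Dlg2 (-0.13) and Nsf (-0.07) were lower, 3 of 19. Of the GABA receptor scaffolds and partners 4 of 15 were lower and 1 higher. Among the 4 were Kctd16, an auxiliary subunit of GABA-B receptors (-0.46 ± 0.06, adjusted p = 2.5e-05), Gphn, the gephyrin scaffold of inhibitory synapses (-0.12), and Kctd12 (-0.08), while Gabarap was higher (0.10). Of the synthesis and transport genes 6 of 21 were lower, among them Aldh5a1 (-0.11), Slc1a2 (-0.11), Slc32a1 (-0.10), Gad2 (-0.09) and Gad1 (-0.07), which make, pack or break down GABA except for the glutamate transporter gene Slc1a2. Slc32a1, Gad2 and Gad1 are also the 3 inhibitory neuron markers that were lower, since the lists overlap. Slc38a3, a glutamine transporter gene, was higher (0.11). Of the glycine receptor genes Glra3 was lower (-0.38 ± 0.09).

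Subunits that share a receptor were compared for shared variation over the 30 brains, in 15 pairs with p values from 100000 permutations adjusted over the pairs. Gabra2 and Gabrb1 varied together most closely (Pearson r = 0.80, adjusted p = 7.5e-05, Spearman rho = 0.80, adjusted p = 0.00015). Their r was 0.56 in cohort 1, 0.58 in cohort 2 and 0.76 without the 2 brains farthest from the median of Gabra2, lower within each cohort than over both.

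Grin2a and Grin2b, which replace each other in NMDA receptors, gave r = 0.67 (adjusted p = 0.00015) and rho = 0.65 (adjusted p = 0.00095), with 0.49 and 0.51 within the cohorts and 0.50 without the 2 farthest brains. Their obligatory partner Grin1 gave r = 0.17 with Grin2a (adjusted p = 0.559) and 0.14 with Grin2b (adjusted p = 0.559). The GABA-B pair Gabbr1 and Gabbr2 gave r = 0.54 (adjusted p = 0.00934) and rho = 0.48 (adjusted p = 0.0313), with 0.56 and 0.70 within the cohorts. That relation fell to 0.39 and no longer passed without the 2 brains farthest from the median of Gabbr1 (adjusted p = 0.109), so it rests in part on them. Gabra6 and Gabrd, which pair in cerebellar granule cells, gave r = 0.46 (adjusted p = 0.0309) and rho = 0.41 (adjusted p = 0.0751), past the threshold by r and not by rho, and not without the 2 farthest brains (r = 0.41, adjusted p = 0.109). Among the pairs that did not pass, r was 0.22 for Gria1 and Gria2, 0.16 for Gabra4 and Gabrd, 0.14 for Gria2 and Gria3 and 0.13 for Grik2 and Grik5. Within a cohort 1 pair passed in cohort 1 and 1 in cohort 2, with 18 and 12 brains.

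Because markers of cerebellum were present in libraries of cerebral hemispheres, the members were set beside the mean of those 10 markers in each brain, a comparison added after the data had been seen. Calb2, 1 of the 10, is also in the thalamus list. The marker mean was lowest in WT replicate 10 (8.85) and KO replicate 4 (8.94), both males of cohort 2, and highest in WT replicate 6 (9.42). Over the 30 brains 6 of 44 members rose with it by both r and rho (13.6%), against 0.545% of the 23685 genes other than the markers, and 0 fell, against 0.0929%. P values came from 100000 permutations and were adjusted over all genes. Among the 6 were Gabra6, Grm4 and Grin2c, known from granule cells, and Gria4, which is also abundant in cerebellum.

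Gabra6 gave r = 0.84 and rho = 0.71 (adjusted p = 0.00329 and 0.0135), with r = 0.65 and 0.96 within the cohorts. Without the 2 brains farthest from the median marker level, WT replicate 10 and KO replicate 4, r was 0.74 for Gabra6. Gria4 gave r = 0.82 and rho = 0.72, Grin2c 0.75 and 0.69 and Grm4 0.74 and 0.65, each with an adjusted p of 0.00329 for r and at most 0.0359 for rho. Without the 2 farthest brains these 3 had r from 0.60 to 0.70, and their within-cohort values ran from 0.58 (Grin2c, cohort 1) to 0.89 (Grin2c, cohort 2). For Gabra6 the brains ran from 8.78 in WT replicate 10 to 9.49 in WT replicate 6, the brains with the lowest and the highest marker means. Next in order Grik1 (r = 0.56, adjusted p = 0.0633) did not pass, and the lowest r was that of Gabra5 (-0.50, adjusted p = 0.122). Against the striatum, thalamus and hippocampus markers 0 members passed, with r from -0.50 to 0.55, beside 0.0169% of genes for striatum, all positive, and 0% for the other two.

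Of these genes, Grm4 and Grin2c also had the lowest KO against WT values given above. Without the 2 brains lowest in the markers those values were -0.13 for Grm4 (adjusted p = 0.321) and -0.13 for Grin2c (adjusted p = 0.322). Gabra6 (0.04) and Gria4 (0.01) were on the positive side in KO against WT. Among the markers themselves, Car8 (-0.18), Itpr1 (-0.18) and Pcp2 (-0.18), known from Purkinje cells, were the lowest in KO against WT and none was called (lowest adjusted p = 0.0989), and the granule cell genes lay on both sides of 0, with Neurod1, Fat2, Zic1 and Zic2 between 0.02 and 0.05, Cbln1 at -0.02 and Cbln3 at -0.03.

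**Figure D5:**
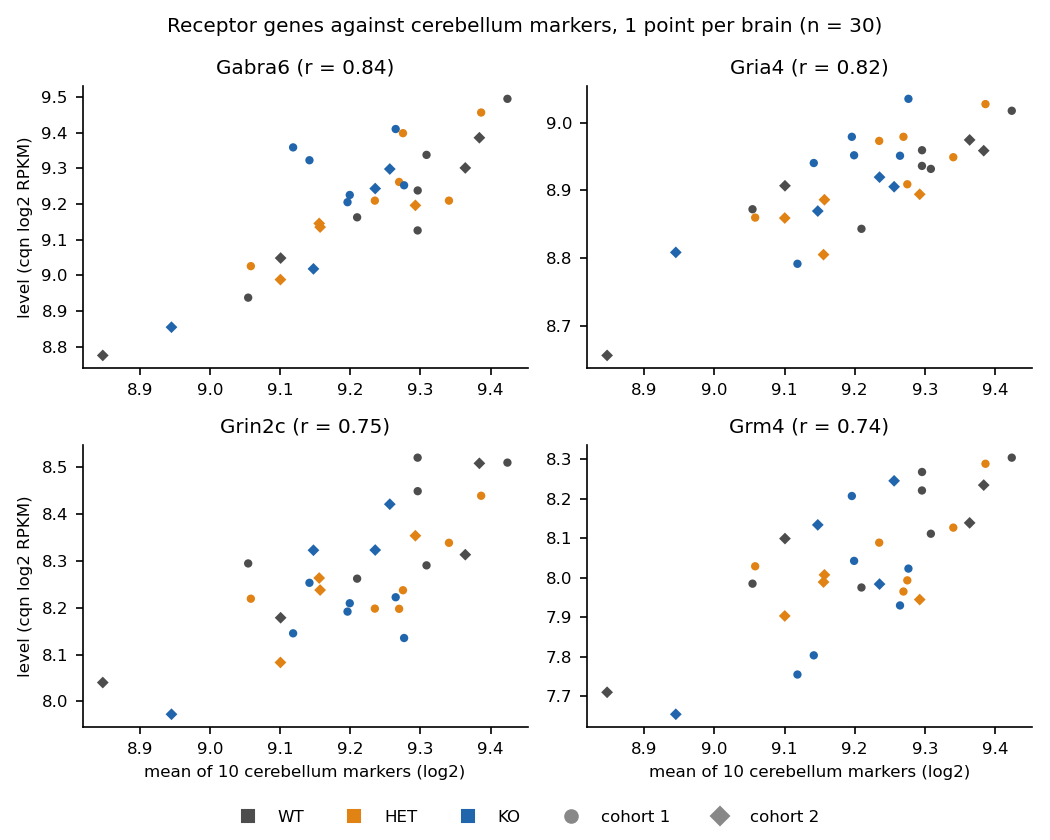
Levels of 4 receptor genes (log2 RPKM, vertical axes) against the mean of 10 cerebellum markers (log2, horizontal axes) in 30 brains, coloured by genotype and shaped by cohort, with Pearson r in each title. All 4 rise with the marker mean from the lowest brain (8.85) to the highest (9.42), and brains of all 3 genotypes are spread along the range.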

How the data were processed

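RNA of 30 mouse brains was sequenced. The submitters' processing notes name TopHat2 2.0.12, Bowtie 1.1.0 and the build mm10. No source used here gives the counting tool, annotation release or strand setting. As deposited, the values are the authors' log2 RPKM after conditional quantile normalization for 34871 genes, per the file's own name, with gene lengths in bases, another deposited column. Every sample column was matched to a mouse by its title, and 0 columns were left unused.

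Genes with a mean above 0 (23695) were fitted in limma 3.58.1 (R 4.3.3) on genotype, sex, cohort and RIN over all 30 libraries, with eBayes and an intensity trend, two-sided, and Benjamini-Hochberg adjustment over those genes. "Called", "higher" and "lower" mean an adjusted p under 0.05. No pseudocount was added. SE is that of the fit and SD that between mice. The fit was tested on simulated data. Correlations used permutations (Python 3.11.15, scipy 1.17.1). A summed marker level is the log2 of the sum of linear values over a list. Promoters came from RefSeq (GRCm38.p6), strands from the GENCODE annotation of mm10 and overlaps from the gene positions deposited with the values. Coordinates are 1-based.

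The members and gene lists were chosen with earlier results of these data known. The genes named were the called members of each comparison, the 3 highest and 3 lowest values among the others, a fixed set of lead subunits, the X-linked members for sex, and the called, or else the highest and lowest, genes of each related list, while every member reported was named with its level. Some members and related genes are counted but not reported here by name. Members with an unadjusted p under 0.05 in a genotype comparison were added after their values were seen. Alternatives were other covariates, filters, scaling, samples, single cohorts and sexes, and each library left out in turn.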

Additional observations from a re-analysis of the deposited data

Results flagged for a closer look

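Single brains were checked for a value far from the rest of their genotype, among 35 members in 105 groups of 10 brains. A brain was taken as apart where the gap to its nearest neighbour exceeded Dixon's limit for 10 values as a share of the range of the group, which chance gives in about 1 of 20 groups, and 4 groups had such a brain, of which 3 are given. Grin2b was lowest in KO replicate 7, at 7.69. Gabra5 was lowest in WT replicate 6, a female, at 7.87. Gabrq, the theta subunit gene on the X chromosome, was lowest in HET replicate 4, at 3.76.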

How the results depend on the processing

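No paired analysis was possible because replicate numbers were given in accession order and no label pairs mice across genotypes. Leaving out each library in turn gave 0 to 1 called members for KO against WT and for the slope over deleted copies (1 without WT replicate 10), and 0 to 1 for males against females. For males against females the count was also 0 with WT libraries only, with no intensity trend, in cohort 1 alone, in cohort 2 alone and without the 2 libraries lowest in cerebellum markers (chosen after seeing the data), and it was 8 (2 higher, 6 lower) with no filter on low values, where 9087 of 34871 genes were called. For cohort 2 against cohort 1 it was 8 to 12 with single libraries left out (12 without WT replicate 7), 1 with WT libraries only, 0 in females alone and 5 in males alone. Of the 15 pairs, 1 passed in cohort 1 alone, 1 in cohort 2 alone and 3 without the 2 farthest libraries. Why these counts moved was not tested, and some but not all of those fits held fewer libraries. The other 334 recomputed counts stayed within 1.5 times the reported one, and no called difference changed sign. Unknown read depth limits low genes such as Gabrr1 most, whose 95% interval in KO against WT ran from -0.37 to 0.68.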
